A study of Mus musculus with 8 samples.

Results

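The subject is 10 genes of the muscle acetylcholine receptor and of the neuromuscular junction, the synapse at which a motor nerve drives a muscle fibre. They are the receptor subunit genes Chrna1, Chrnb1, Chrnd, Chrng and Chrne, and Musk, Lrp4, Dok7, Rapsn and Ncam1. The genes were picked by name. Each had 1 probe set annotated to it alone among 16755 probe sets and 14860 genes, and no probe set held a member together with another gene. RNA came from the tibialis anterior of male C57BL/6 mice of 8 weeks that were not fasted. The left muscle was electroporated with the plasmid pcDNA3 carrying no insert (25 µg) and the right one with 25 µg of pCMV-ATF4-FLAG, which encodes mouse ATF4, a stress-response transcription factor, under a CMV promoter as its name gives it. RNA was harvested on day 11 and hybridised to exon arrays in 4 experiments, each with 1 array per leg, so that there are 4 arrays in either group. Leg and plasmid cannot be told apart in this design, and the sources used here give neither the share of fibres that took up plasmid nor whether an experiment pooled mice; p-values measure the spread between experiments.

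The muscle receptor is a pentameric channel. Fetal and denervated muscle builds it with the γ subunit (Chrng), and innervated adult muscle replaces γ with ε (Chrne), beside α1 (Chrna1), β1 (Chrnb1) and δ (Chrnd). Nerve-derived agrin binds LRP4, which activates the kinase MuSK. DOK7 is the cytoplasmic activator of MuSK, and rapsyn (Rapsn) anchors the receptors in clusters. NCAM1 is an adhesion molecule that spreads over the fibre surface when a muscle is denervated. In innervated fibres the α1, β1 and δ genes are transcribed mainly by nuclei under the synapse, and electrical activity keeps them low elsewhere, in part through myogenic factors that bind E-boxes in their promoters.

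The promoter windows are shown for the 4 receptor subunits with a RefSeq window and for Musk, because E-boxes are the element best known in them and these genes are set side by side below. RefSeq (GRCm38.p6) windows were on hand for 6 of the 10 genes, Chrna1, Chrnb1, Chrng, Chrne, Musk and Dok7. In the 250 bases before the start, on both strands, a script looked for the E-box CANNTG, its form CAGCTG that myogenic factors favour, the N-box CCGGAA, the element TGATGNAAN that ATF4 binds with C/EBP partners, and the cAMP response element TGACGTCA. The last 180 bases before the start follow, read on the gene's own strand, with matches in capitals. They lie at chr2:73580339-73580518 (-) for Chrna1, chr11:69795938-69796117 (-) for Chrnb1, chr1:87205631-87205810 (+) for Chrng, chr11:70619195-70619374 (-) for Chrne and chr4:58285782-58285961 (+) for Musk.
Chrna1: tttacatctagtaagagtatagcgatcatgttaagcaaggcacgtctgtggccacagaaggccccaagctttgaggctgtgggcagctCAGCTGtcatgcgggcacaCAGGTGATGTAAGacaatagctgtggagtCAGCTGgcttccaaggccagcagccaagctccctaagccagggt
Chrnb1: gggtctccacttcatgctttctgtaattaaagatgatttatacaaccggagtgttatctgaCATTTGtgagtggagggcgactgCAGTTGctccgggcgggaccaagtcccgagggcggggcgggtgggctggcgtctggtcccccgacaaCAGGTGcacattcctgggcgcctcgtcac
Chrng: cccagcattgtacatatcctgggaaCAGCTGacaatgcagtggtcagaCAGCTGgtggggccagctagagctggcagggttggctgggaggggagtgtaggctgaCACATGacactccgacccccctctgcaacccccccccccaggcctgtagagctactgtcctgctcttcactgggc
Chrne: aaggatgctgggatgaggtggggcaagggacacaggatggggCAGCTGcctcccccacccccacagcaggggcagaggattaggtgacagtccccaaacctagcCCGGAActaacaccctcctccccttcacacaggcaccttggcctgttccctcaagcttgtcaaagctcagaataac
Musk: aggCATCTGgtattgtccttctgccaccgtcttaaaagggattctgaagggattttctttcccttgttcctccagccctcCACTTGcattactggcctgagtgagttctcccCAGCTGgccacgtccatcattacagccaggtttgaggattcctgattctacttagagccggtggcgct

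Counted by gene, all 6 held an E-box in some window, and 66.2% of the 32851 promoter windows in the table held it. Dok7 has 2 of the 7 windows of these genes, and its downstream window held no match to any element. The form CAGCTG was in 4 of the 6 (Chrna1, Chrng, Chrne and Musk) and in 4271 of the 32851 windows. Chrna1 and Chrng each held it at 2 places, 92 and 44 bases before the start in Chrna1, and 155 and 132 bases before it in Chrng. In Chrna1 the third E-box, CAGGTG, starts 73 bases before the start and shares its last bases with a match to TGATGNAAN, which 3.44% of all windows held. Chrne alone held an N-box, 76 bases before the start, an element that 3952 of the windows held. No member window held TGACGTCA, which 1.55% of all windows held. A match describes these letters and shows no binding.

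Values are log2 values made with RMA, and all differences are ATF4-labelled minus empty vector on that scale, with 4 pairs. The tissue label was checked with fast-fibre genes, of which 10 of 12 listed were measured. The lowest of them was at the 99.2 percentile of probe sets. Their mean on an array was 10.15 to 10.24 in the empty-vector group and 10.001 to 10.32 in the ATF4-labelled group. All 10 had a fitted difference below 0, with a median of -0.04 and 0 past the threshold, whereas 54.5% of all probe sets were above 0. Atf4 itself differed by 0.18 (95% interval -0.08 to 0.45; limma adjusted p = 0.846), an interval that includes 0. The part of the transcript its probes cover is not known here, so this does not check the plasmid, and the right muscles are called ATF4-labelled. The member genes lay between the 39.9 and the 85.5 percentile of level. Scanner detection calls were not used here, so low expression cannot be separated from background, and levels of different probe sets cannot be compared with each other. In whole muscle, fewer cells of a type and less RNA per cell cannot be told apart.

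Of the 10 genes 9 had a fitted difference above 0, led by Chrna1, and Rapsn had one below 0. Across all probe sets 54.5% were above 0. The median difference was 0.37 for the 10 genes and 0.02 for all genes. After Benjamini-Hochberg adjustment over all probe sets 0 of the 10 passed 0.05 in limma, where 0.0179% of probe sets passed, and 6 of 10 (Chrna1, Ncam1, Chrnd, Musk, Chrnb1 and Chrng) had an unadjusted p under 0.05 with a higher value, against 3.23% of probe sets. Without experiment 3 this count was 3 of 10. Values were higher in all 4 experiments for 6 of 10 genes (8.25% of probe sets), and the arrays of both groups did not overlap for 4 of 10 (1.41% of probe sets). These 4 were Chrna1, Chrnb1, Chrnd and Musk. The members were chosen with earlier results of these data known, so these shares are descriptions and no gene below is called changed.

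**Figure D1:**
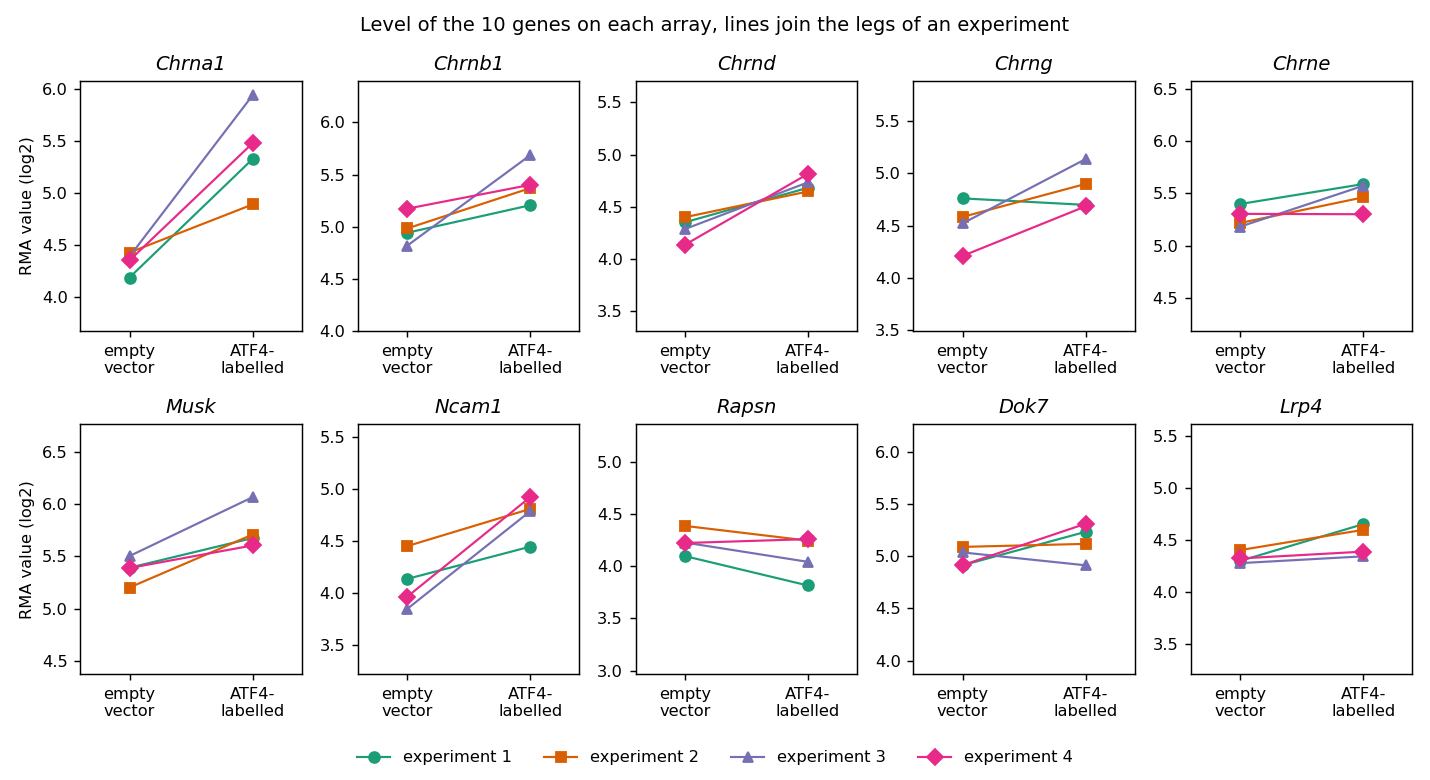
RMA values (log2, vertical axis, the same span in every panel) of the 10 genes on the 8 arrays; each line joins the empty vector and the ATF4-labelled muscle of 1 experiment. In Chrna1 all 4 lines climb and the ATF4-labelled arrays reach 4.89 to 5.94, whereas the lines of Dok7 and Rapsn run in both directions.

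Chrna1 (probe set 6887853) encodes the α1 subunit, which carries most of the acetylcholine binding site. It stood at 4.19, 4.43, 4.39 and 4.36 with empty vector and at 5.33, 4.89, 5.94 and 5.48 with the ATF4 label in experiments 1 to 4. Every ATF4-labelled array lay above every empty-vector array, with experiment 2 lowest and experiment 3 highest. The means were 4.34 ± 0.11 and 5.41 ± 0.43 (SD, n = 4), so that the spread was wider in the ATF4-labelled group. The fitted difference was 1.07 (SE 0.17, 95% interval 0.67 to 1.47), a 2.10-fold higher value, with an adjusted p of 0.233 in limma. By unadjusted p Chrna1 ranked 20 among the 16755 probe sets. Its difference was 1.14, 0.46, 1.55 and 1.12 in the 4 experiments. It was the largest of the 5 subunits in each experiment, where the next subunit reached 0.33, 0.39, 0.87 and 0.68. Differences of separate probe sets can be compressed to different degrees, and this order was not tested.

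Chrnd (probe set 6751326), the δ subunit, stood at 4.35, 4.40, 4.29 and 4.13 with empty vector and at 4.68, 4.65, 4.73 and 4.81 with the ATF4 label. The groups did not overlap, and the ATF4-labelled arrays lay within a narrow band. The means were 4.29 ± 0.12 and 4.72 ± 0.07 (SD, n = 4), and the difference was 0.43 (SE 0.12, 95% interval 0.15 to 0.70, limma adjusted p = 0.754).

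Chrnb1 (probe set 6789343), the β1 subunit, stood at 4.94, 4.98, 4.82 and 5.17 with empty vector and at 5.21, 5.37, 5.69 and 5.40 with the ATF4 label. The groups did not overlap, but only 0.03 lay between the ATF4-labelled array of experiment 1 and the empty-vector array of experiment 4. The difference was 0.44 (SE 0.14, 95% interval 0.12 to 0.76, limma adjusted p = 0.754). Experiment 3 weighed most, at 0.87 against 0.23 to 0.39 in the others, and without it the difference was 0.29.

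The γ and ε subunits, which replace one another in the receptor, had the smallest fitted differences of the 5 subunits, an order that was not tested. Chrng (probe set 6751330) stood at 4.76, 4.58, 4.52 and 4.21 with empty vector and at 4.70, 4.90, 5.14 and 4.68 with the ATF4 label. The groups overlapped, and in experiment 1 the ATF4-labelled muscle was the lower of the pair, by -0.06. The difference was 0.34 (SE 0.14, 95% interval 0.02 to 0.66, limma adjusted p = 0.822).

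Chrne (probe set 6789441) stood at 5.40, 5.22, 5.18 and 5.30 with empty vector and at 5.59, 5.46, 5.57 and 5.30 with the ATF4 label. It was higher in experiments 1 to 3 and level in experiment 4, and the groups overlapped. With quantile normalization Chrne was higher in experiment 4 as well, by 0.13. Its fitted difference was 0.21 (SE 0.12, 95% interval -0.06 to 0.47, limma adjusted p = 0.846). The difference of Chrng less that of Chrne was -0.25, 0.07, 0.23 and 0.48 in experiments 1 to 4, so its sign was not the same in all experiments. It was not tested. In experiment 4 quantile normalization gave 0.34 for Chrng beside the 0.13 for Chrne.

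**Figure D2:**
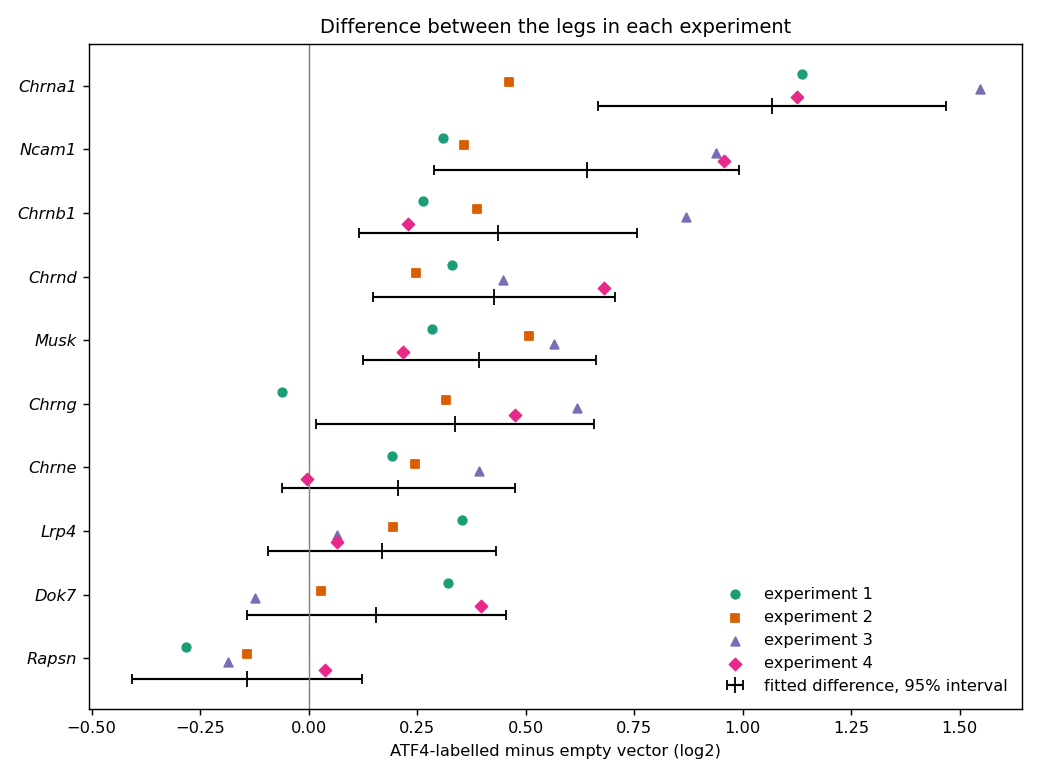
Difference between the ATF4-labelled and the empty-vector muscle (log2, horizontal axis) for each gene, with 1 symbol per experiment and the fitted difference with its 95% interval in black. Genes are ordered by the fitted difference, from Chrna1 at 1.07 to Rapsn at -0.14; the intervals of Chrne, Lrp4, Dok7 and Rapsn cross 0.

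Musk (probe set 6913824), the receptor kinase that organises the postsynaptic membrane, stood at 5.39, 5.20, 5.50 and 5.39 with empty vector and at 5.68, 5.71, 6.07 and 5.60 with the ATF4 label. The groups did not overlap, and experiment 3 was highest in both. The difference was 0.39 (SE 0.12, 95% interval 0.12 to 0.66, limma adjusted p = 0.754), and it was 0.28, 0.51, 0.56 and 0.22 in the 4 experiments. In experiment 2 the difference of Musk was the largest of the 10 genes.

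The partners of MuSK in the same pathway had smaller fitted differences than Musk, which was not tested. Lrp4 (probe set 6879054), the agrin receptor, stood at 4.30, 4.41, 4.28 and 4.32 with empty vector and at 4.65, 4.60, 4.35 and 4.39 with the ATF4 label. It was higher in every pair, by 0.35, 0.19, 0.07 and 0.07, and the groups overlapped. With quantile normalization between arrays Lrp4 was lower in experiment 4, at -0.08. Its fitted difference was 0.17 (SE 0.11, 95% interval -0.09 to 0.43, limma adjusted p = 0.853).

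Dok7 (probe set 6929866) stood at 4.91, 5.09, 5.04 and 4.91 with empty vector and at 5.23, 5.12, 4.91 and 5.31 with the ATF4 label. The differences of 0.32, 0.03, -0.12 and 0.40 did not share a sign, and the fitted value was 0.16 (SE 0.13, 95% interval -0.14 to 0.45, limma adjusted p = 0.868).

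Rapsn (probe set 6879015), the gene of the receptor anchor, was the single member with a negative fitted difference. It stood at 4.10, 4.39, 4.23 and 4.22 with empty vector and at 3.82, 4.25, 4.04 and 4.26 with the ATF4 label. It was lower in experiments 1 to 3, by -0.28, -0.14 and -0.19, and higher in experiment 4 by 0.04, a sign that turned to -0.12 with quantile normalization. The fitted difference was -0.14 (SE 0.11, 95% interval -0.41 to 0.12, limma adjusted p = 0.866). The fitted differences of all other members lie above this interval, but the intervals of Chrnb1, Chrng, Chrne, Lrp4 and Dok7 overlap it. Rapsn was not tested against the other members.

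Ncam1 (probe set 6995454) stood at 4.13, 4.45, 3.85 and 3.96 with empty vector and at 4.44, 4.81, 4.78 and 4.92 with the ATF4 label. It was higher in every pair, while the array of experiment 1 with the ATF4 label fell just under the highest empty-vector array, that of experiment 2. The difference was 0.64 (SE 0.15, 95% interval 0.29 to 0.99), 1.56-fold, with a limma adjusted p of 0.609. Only Chrna1 and Ncam1 of the 10 were at least 1.5-fold higher, as were 0.889% of probe sets. In experiments 3 and 4 Ncam1 differed by 0.94 and 0.96, and in experiments 1 and 2 by 0.31 and 0.36.

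NCAM1 is also made by satellite cells and Schwann cells, so their markers are set beside it. Markers of natural killer and T cells are given as a description only. Array values on a log2 scale have no zero, so absence of a marker cannot be read from them. Of 8 satellite cell markers 7 were higher, with a median of 0.11 and 0 past the threshold. Their mean on an array was 4.39 to 4.58 in the empty-vector group and 4.55 to 4.73 in the ATF4-labelled group. The markers with the smallest p were Cxcr4 at 0.42 (SE 0.12), Sdc4 at 0.29 (SE 0.11) and Itga7 at 0.26 (SE 0.11), each higher in all 4 experiments. Cdh15 differed by 0.09, Megf10 by 0.09, Myf5 by 0.08 and Vcam1 by -0.003, and none of these was higher in all 4. Pax7, the defining gene of satellite cells, differed by 0.14 (SE 0.18) and was lower in experiments 1 and 3. Of the 11 Schwann cell and nerve markers 8 were measured and 6 were higher (median 0.08). Their mean went from 4.31 to 4.72 over the empty-vector arrays and from 4.51 to 4.79 over the ATF4-labelled arrays. S100b differed by 0.46 (SE 0.13) and was higher in all 4 experiments, by 0.34, 0.80, 0.26 and 0.44. Sox10, a Schwann cell transcription factor, differed by 0.08 (SE 0.14) and was lower in experiments 2 and 3. Gfap differed by 0.24, Mag by 0.13, Ngfr by 0.07 and Cnp by 0.01, and none of these was higher in all 4. The myelin genes Pmp22 and Mbp went the other way, each at -0.08 and each higher in only 1 experiment. Of 9 measured markers of natural killer and T cells 7 were higher (median 0.05). Their mean went from 4.43 to 5.41 over the empty-vector arrays and from 4.10 to 5.46 over the ATF4-labelled arrays. Gzmb, granzyme B of cytotoxic cells, went the other way at -0.60 (SE 0.11) and was lower in all 4 experiments. None of these markers passed the threshold, and their part in the difference of Ncam1 was not tested.

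**Figure D3:**
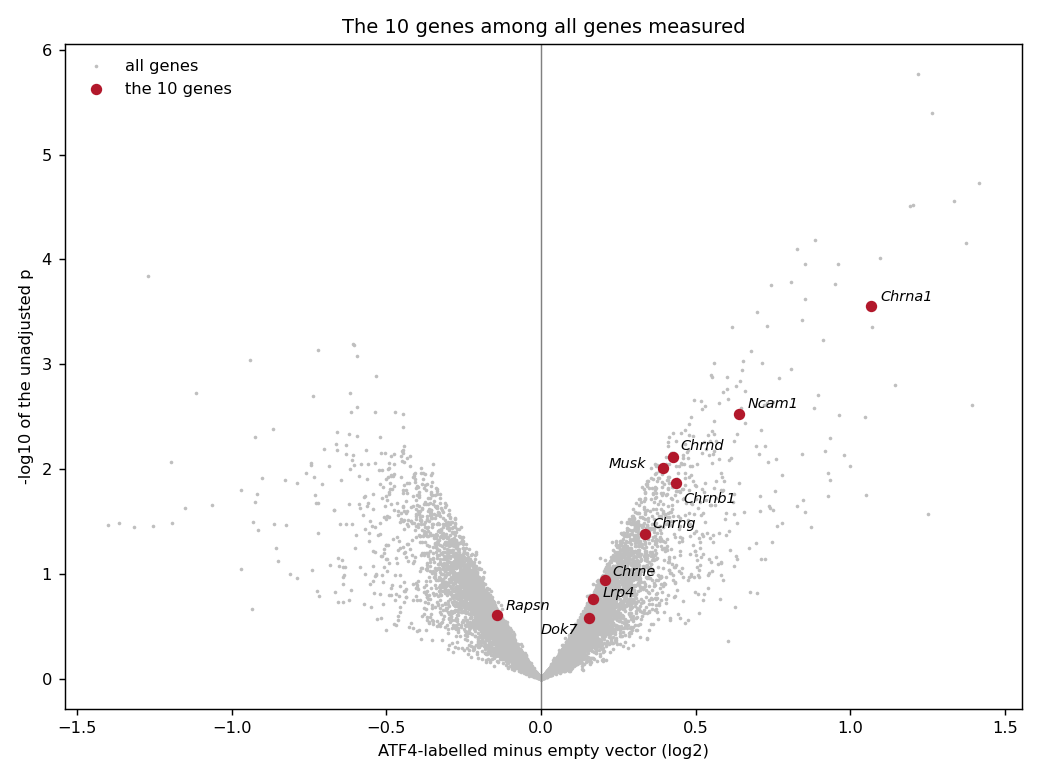
Fitted difference (log2, horizontal axis) against the -log10 of the unadjusted limma p (vertical axis) for all 14860 genes in grey and the 10 genes in red. Chrna1 lies apart from the bulk of the genes, the next 5 members lie on the right flank, and Chrne, Lrp4, Dok7 and Rapsn lie within the mass of genes near 0.

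The 10 genes varied together to different degrees over the 8 arrays. Pearson correlations were positive for 36 of the 45 gene pairs, and for all 36 pairs without Rapsn, with a median of 0.56 over the 45 pairs. They ran from -0.81 for Chrne with Rapsn to 0.91 for Chrnd with Ncam1. Without Rapsn the lowest was 0.007, for Chrne with Dok7. These values are descriptions over 8 arrays that share experiments, groups and a common normalization. Genes that differ between the groups in the same direction correlate positively in part by that alone. Rapsn, the member with a negative difference, was set apart after the values were seen, and no share over all gene pairs was computed. By experiment, the mean difference of the 10 genes was 0.28, 0.26, 0.51 and 0.42, and 8, 9, 8 and 9 of them were higher. In experiment 4 the ATF4-labelled array had a higher median of all probe sets (4.44 against 4.29) and a narrower spread (SD 1.14 against 1.31) than its partner. With quantile normalization the difference in experiment 4 went from 0.68 to 0.55 for Chrnd, from 0.96 to 0.82 for Ncam1 and from 0.48 to 0.34 for Chrng, and from 0.22 to 0.40 for Musk.

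Over the 8 arrays the genes most like Chrna1 by Pearson r were Tnni1 (0.959), Mymk (0.953), Prkab1 (0.946), Fhl1 (0.946) and Map1b (0.940). Both groups enter r, so a gene that differs between them as Chrna1 does ranks high by that alone. The differences that follow describe the genes picked in this way and are no separate evidence. Tnni1, slow skeletal troponin I, passed the threshold with a difference of 1.26 (SE 0.11, limma adjusted p = 0.025). Mymk, the myoblast fusion protein myomaker, differed by 0.85 (SE 0.14, limma adjusted p = 0.211), at 0.59, 0.68, 1.21 and 0.93 in experiments 1 to 4. The genes most like Chrne were Map1lc3a (0.948), Iffo1 (0.924), Olfr1058 (0.916), Bola2 (0.916) and Nes (0.904). All of these except Nes, at 0.63, and Olfr1058, at 0.39, differed by 0.19 to 0.22.

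Other genes of the synapse were split in direction, with a share above 0 near that of all probe sets. Of 38 listed genes of the cleft, of clustering and of their signals 30 were measured. Of these 18 were higher (60%, against 54.5% of probe sets) and 12 lower, with a median of 0.05, and 0 passed in either direction. Higher in all 4 experiments were 7 (23.3%, against 8.25% of probe sets), and 3 were lower in all 4, as were 990 of the 14860 genes. Nes, the intermediate filament nestin found under the endplate and in regenerating fibres, differed by 0.63 (SE 0.13, limma adjusted p = 0.556), at 0.53, 0.70, 0.97 and 0.32. Its groups did not overlap. Ache, the acetylcholinesterase that ends transmission, differed by 0.37 (SE 0.11, limma adjusted p = 0.754) and was higher in all 4 pairs, by 0.24, 0.45, 0.36 and 0.44. Prkar1a, a regulatory subunit of protein kinase A, differed by 0.34 (SE 0.15), with experiment 4 at -0.21. Dnaja3, a MuSK-binding cochaperone, differed by -0.24 (SE 0.12). Agrn, the gene of the LRP4 ligand agrin, was added for its role after the values were seen and differed by 0.05 (SE 0.15).

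Transcription factors and corepressors that act on receptor genes had a median difference of 0.03, beside 0.02 for all genes. Of 27 measured 18 were higher and 9 lower, and 0 passed the threshold. Myog, myogenin, the E-box factor that denervation induces, stood at 4.44 on average with empty vector and 4.85 with the ATF4 label, and its groups did not overlap. Its difference was 0.41 (SE 0.13, limma adjusted p = 0.754), at 0.15, 0.27, 0.55 and 0.66 in experiments 1 to 4. Runx1, another factor induced by denervation, differed by 0.30 (SE 0.11, limma adjusted p = 0.787) and was higher in all 4 pairs. Myod1 differed by 0.20 (SE 0.14), with values near 0 in experiments 1 and 3. Etv5, an ETS factor of subsynaptic nuclei, differed by 0.18 (SE 0.12). Gabpa, the ETS subunit known for the N-box, was likewise added for its role and differed by -0.11 (SE 0.12).

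The neuronal acetylcholine receptor subunits were set beside the members as relatives of the same gene family. All 9 measured had a fitted difference above 0, against 54.5% of all probe sets, with a median of 0.13. None of the 9 was higher in all 4 experiments or had groups that did not overlap, which with 9 genes is near the shares of 8.25% and 1.41% over all probe sets. Their mean difference was -0.05, 0.04, 0.09 and 0.38 in experiments 1 to 4, so most of it lay in experiment 4. In that experiment the ATF4-labelled array had a higher median of all probe sets (4.44 against 4.29) and a narrower spread than its partner. These subunits were not examined with another scaling, and the part of that shift in the count of 9 was not tested. Chrnb4 was the member with the smallest p, at 0.21 (SE 0.13, limma adjusted p = 0.846). The next were Chrnb3 at 0.19 (SE 0.14), Chrna4 at 0.15 (SE 0.14) and Chrna7 at 0.14 (SE 0.13).

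Of 12 further genes linked to denervation or disuse 8 were measured, 6 higher and 2 lower, with a median of 0.32 and 0 past the threshold. This list was drawn up with its earlier results in view and is no independent evidence. Ankrd1, a titin-binding protein, differed by 1.204 (SE 0.14, limma adjusted p = 0.0742) and Sln, sarcolipin, by 1.37 (SE 0.18, limma adjusted p = 0.130). Gadd45a, a stress gene induced in denervated muscle, differed by 0.71 (SE 0.14) and Cdkn1a, the p21 gene, by 0.55 (SE 0.11). Fbxo32, the atrophy ligase gene atrogin-1, lay in the other direction at -0.38 (SE 0.15). It was lower in all 4 pairs, at -0.02, -0.16, -0.48 and -0.86 in experiments 1 to 4, so experiment 1 was nearly level. The rest of the list lay near 0, with Cdh15 at 0.09, Ky at 0.01 and Igfbp5 at -0.08.

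**Figure D4:**
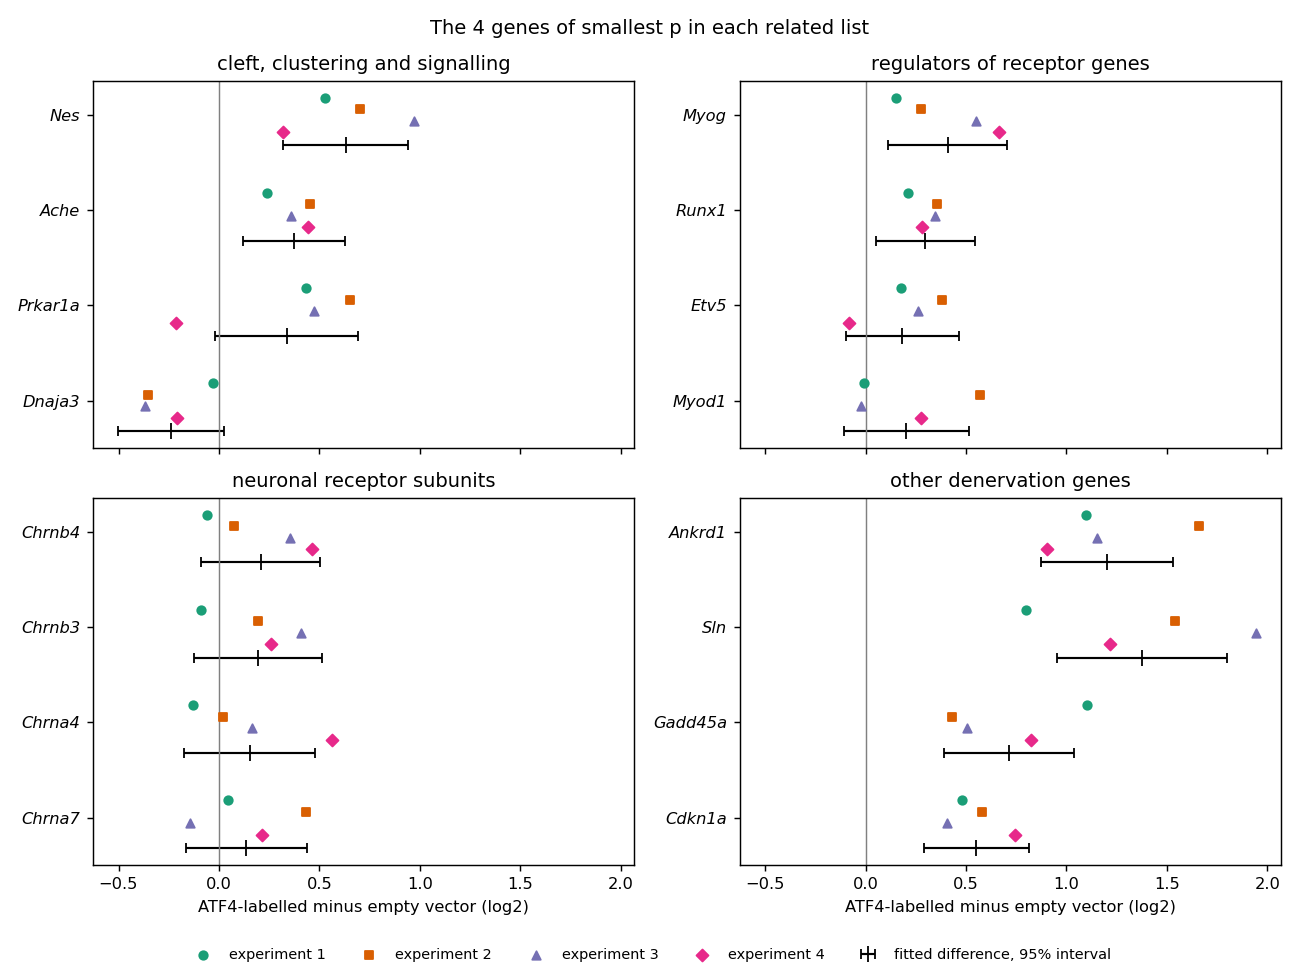
Difference between the ATF4-labelled and the empty-vector muscle (log2, horizontal axes) for the 4 genes of smallest p in each of 4 related lists, with 1 symbol per experiment and the fitted difference with its 95% interval in black. Nes, Ache, Myog and Runx1 lie to the right of 0 in every experiment, as do Ankrd1, Sln, Gadd45a and Cdkn1a, whereas 3 of the 4 neuronal subunits lie below 0 in experiment 1.

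Some of the 10 genes share their place in the genome with other transcripts in RefSeq (GRCm38.p6). Chrnd and Chrng are neighbours on the same chromosome. Gm30940 overlaps Chrna1, 4930544D05Rik overlaps Chrne, Gm11149 overlaps Ncam1 and Gm13778 overlaps Rapsn. The sources used here do not give which of the probes lie in shared sequence.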

How the data were processed

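The authors deposited log2 values, 1 per probe set and array, that RMA had background-corrected, normalized and summarised; the submitters' processing notes name RMA without a version. The notes also name hg18, a human build, with no role, so no probe coordinates are reported. That the scale is log2 follows from the range of the values. Of the 16755 probe sets 14996 have 1 gene in the platform annotation, 1019 several and 740 none; 14941 Entrez identifiers matched RefSeq GRCm38.p6 and 0 symbols were updated. A gene took its row of highest mean over 8 arrays.

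limma 3.58.1 in R 4.3.3 fitted ATF4 minus empty vector on all probe sets with the experiment as a fixed block and a variance prior with trend (4.96 prior and 3 residual degrees of freedom), two-sided, with Benjamini-Hochberg adjustment. The pairing comes from the study design, which sets right against left legs; deviations from the group means correlated by 0.065, 0.31, 0.55 and 0.051 in experiments 1 to 4. The fit was tested on simulated data. The number of arrays limits the precision.

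Members, lists and tests were chosen with earlier results of these data known. Named are the members, Atf4, the 4 genes of smallest p per related list, up to 2 markers per cell type, and the 5 genes most like Chrna1 or Chrne. Fbxo32 was singled out after its values were seen, as were Agrn, Gabpa, Sdc4 and Itga7. Cdh15, Megf10, Myf5 and Vcam1 were added so that all satellite cell markers are given. Likewise Gfap, Mag, Ngfr, Cnp, Pmp22 and Mbp were added for the Schwann cell and nerve list, and Ky and Igfbp5 for the denervation list. Macrophage and fibroblast lists were also counted: 9 of 11 macrophage markers were higher, with a median of 0.20, and 7 of 10 fibroblast markers, with a median of 0.19, and 0 passed.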

Additional observations from a re-analysis of the deposited data

Results flagged for a closer look

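For the 10 genes and Atf4, 22 groups of 4 arrays were examined for a single array lying apart from the rest, which chance alone flags in about 1 group of 20. In 0 of the 22 groups did an array lie that far out.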

How the results depend on the processing

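In all 13 other settings 0 of the 10 genes passed the threshold, and of 129 refitted differences 0 changed sign. Settings that changed the block, the variance prior or the probe sets tested leave a fitted difference as it was by construction. Only the other scalings, array weights and leaving out an experiment could change a sign. The adjusted p of Chrna1 ran from 0.0501 with array weights to 0.67 without experiment 3; with the experiment as a random block (statmod 1.5.0) it was 0.0595 and without the replicate block 0.205. At a threshold of 0.10 on the adjusted p the count was 0 with the settings of the report and 1 (Chrna1) with the random block, with array weights and with the dimmest 50% left out (adjusted p = 0.0678), and at an unadjusted p under 0.05 it was 6, with 3 to 7 over the settings, lowest without experiment 3. Without each experiment in turn the difference of Chrna1 stayed between 0.91 and 1.27, of Ncam1 between 0.53 and 0.75, of Chrnb1 between 0.29 and 0.51, of Lrp4 between 0.11 (without experiment 1) and 0.20, and of Dok7 between 0.08 (without experiment 4) and 0.25 (without experiment 3). Dok7 was 0.03 at its lowest, with array weights. Over all probe sets the count past the threshold was 3; it was 3 without the replicate block, 13 with the random block, 0 without the trend or with median centring, 18 with array weights, 7 and 12 with the dimmest 25% and 50% left out, and 0 to 2 without each experiment in turn. Rapsn was not tested without the dimmest 50%. Pairing changed no call of a member. Median centring moved the median of all probe sets from 0.02 to -0.02 and their share above 0 from 54.5% to 44.99%, with 9 of the 10 genes above 0 in both. Averaging a gene's probe sets was not run, since each of the 10 genes has 1. After the data were seen, 2 counts were repeated. Higher in every experiment were 5 genes with median centring (6.43% of probe sets), 6 with quantile normalization (7.65%) and 6 to 7 without each experiment in turn (13.5% to 17.6%). The groups did not overlap for 4 (1.06%), 5 (1.53%) and 5 to 6 genes (3.06% to 5.16%). With fewer pairs both shares are larger over all probe sets too. With quantile normalization Chrne joined, and Lrp4 left, the genes higher in every experiment.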
